A study of Rattus norvegicus with 27 samples.

Results

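The genes described here carry the symbol of the eukaryotic translation initiation factors, the proteins that bring a messenger RNA, the initiator transfer RNA and the ribosome together before protein synthesis starts. Most code for such factors, and others for proteins that regulate them, such as the eIF2 alpha kinases and the eIF4E-binding proteins, or that act elsewhere, such as Eif4a3. They were taken as every row of the count table whose rat gene symbol begins with Eif and that had a count in any library, without pseudogenes. The rule found 50 genes among 36865 rows, of which 15078 had a count. A further 6 Eif rows that are not pseudogenes (Eif3h, Eif4g1, Eif4e1b, Eif3el1, Eif1l1 and Eif4g2l1) were listed at 0 in every library, and none of 58 Eif pseudogene rows had a count. Eif3h and Eif4g1 code for a subunit of eIF3 and for a scaffold of cap binding that cells in general use, so nothing is read from their listed 0. Eif5, Eif4a1l and Eif5bl were not analysed here.

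The counts came from RNA sequencing of the medial prefrontal cortex of 27 adult male Wistar rats, 1 library per rat, in 1 group without a control. The rats were killed at rest after a battery of open field, light-dark and elevated plus maze tests, and the study took every other animal of a ranking by anxiety-like behaviour. The labels also name acoustic startle, fear conditioning and, as treatment, Learned helplessness for all of them. The study describes startle and fear conditioning only for a separate cohort of Long-Evans rats, and it describes no learned helplessness. Per-rat behaviour was not used here, so nothing below relates a gene to anxiety. The study lists Eif2s2 and Eif3j for an anxiety measure in these same rats, and they are therefore set against the other 48 genes. A relation between them is partly fixed by that choice and is no independent evidence.

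Initiation begins when eIF2, built of an alpha, a beta and a gamma subunit, binds GTP and the initiator transfer RNA and is carried onto the small ribosomal subunit with eIF1, eIF1A and the multi-subunit eIF3. The mRNA arrives through eIF4F, in which eIF4E holds the cap, eIF4G is the scaffold and eIF4A is an RNA helicase helped by eIF4B and eIF4H. eIF2B reloads eIF2 with GTP, and kinases that phosphorylate eIF2 alpha block that step under stress, while eIF4E-binding proteins release eIF4E when the mTOR kinase is active. In neurons both controls are known for their part in the protein synthesis that lasting synaptic change and memory need.

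Promoter sequence is shown for Eif2s2 and Eif3j, and for Eif1 with Eif5a and Eif3g with Eif6, because these were among the most tightly correlated pairs of the 50 (values below). Each line gives the 250 bases upstream of the start annotated by RefSeq in the build GRCr8, 5′ to 3′ on the gene's strand, with matches to the letters searched in capitals.
Eif2s2, chr3:163855571-163855820, minus strand: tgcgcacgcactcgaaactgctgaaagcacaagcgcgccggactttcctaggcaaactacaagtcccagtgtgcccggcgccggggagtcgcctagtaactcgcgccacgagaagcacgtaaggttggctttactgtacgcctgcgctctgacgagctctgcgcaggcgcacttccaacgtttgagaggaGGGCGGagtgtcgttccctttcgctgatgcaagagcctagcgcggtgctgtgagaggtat
Eif3j, chr3:129438465-129438714, plus strand: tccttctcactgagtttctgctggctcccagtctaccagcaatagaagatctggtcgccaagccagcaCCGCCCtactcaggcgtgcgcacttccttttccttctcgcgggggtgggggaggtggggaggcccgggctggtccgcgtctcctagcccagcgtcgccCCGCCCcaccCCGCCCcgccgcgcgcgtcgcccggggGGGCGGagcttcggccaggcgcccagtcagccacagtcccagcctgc
Eif1, chr10:85746887-85747136, plus strand: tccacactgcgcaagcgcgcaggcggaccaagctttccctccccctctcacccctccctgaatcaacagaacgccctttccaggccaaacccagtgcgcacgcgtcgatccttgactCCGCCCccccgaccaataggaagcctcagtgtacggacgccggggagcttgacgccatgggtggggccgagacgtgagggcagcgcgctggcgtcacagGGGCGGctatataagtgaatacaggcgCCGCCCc
Eif5a, chr10:55143222-55143471, minus strand: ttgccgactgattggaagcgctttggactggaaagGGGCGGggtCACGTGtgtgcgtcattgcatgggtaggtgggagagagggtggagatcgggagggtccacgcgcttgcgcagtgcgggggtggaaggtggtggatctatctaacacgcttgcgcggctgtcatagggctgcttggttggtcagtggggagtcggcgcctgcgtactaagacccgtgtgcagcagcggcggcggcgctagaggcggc
Eif3g, chr8:27709947-27710196, minus strand: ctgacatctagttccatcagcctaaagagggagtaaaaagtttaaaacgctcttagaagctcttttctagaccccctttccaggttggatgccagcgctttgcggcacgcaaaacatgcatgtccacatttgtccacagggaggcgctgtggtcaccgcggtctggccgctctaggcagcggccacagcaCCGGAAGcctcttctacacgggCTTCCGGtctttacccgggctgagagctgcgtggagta
Eif6, chr3:164791411-164791660, minus strand: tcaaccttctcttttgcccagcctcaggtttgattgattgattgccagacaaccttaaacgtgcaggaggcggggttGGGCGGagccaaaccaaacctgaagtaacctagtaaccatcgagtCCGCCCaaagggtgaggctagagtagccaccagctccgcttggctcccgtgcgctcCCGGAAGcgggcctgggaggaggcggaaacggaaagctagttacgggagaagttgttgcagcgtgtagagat
Of the 50 genes, 46 had a promoter in the RefSeq table. The GC box letters GGGCGG, read on both strands, stood in 30 of the 46 (65.2%), against 59.3% of the promoters of 9524 genes averaging at least 10 counts. The stretch before Eif2s2 held it 1 time and that before Eif3j 4 times, and the Eif3j stretch had 70.8% G and C against 60.0% for Eif2s2. CCGGAAG, a form of the site bound by ETS factors, stood in 19 of the 46 (41.3%), against 15.1% of those 9524. These 7 letters were in the Eif3g and Eif6 stretches but in neither the Eif2s2 nor the Eif3j stretch. Shorter forms of the ETS site were not searched. The E-box CACGTG stood in 7 (15.2% against 8.4%), Eif5a among them, and GCGCATGC, the letters of the NRF1 site, in 4 (8.7% against 4.57%). TGACGTCA, the full CRE, and AAGATGGCG, the YY1 letters, stood in 0 of the 46, against 3.03% and 1.28%. No search overlapped another in the stretches shown. These shares describe letters in a window and carry no test.

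The libraries held 4907255 to 12771309 counts, and the 50 genes took 0.704% of all counts. Total counts parted without overlap by library number, 4907255 to 8568317 in the 16 libraries numbered up to 31 and 9404220 to 12771309 in the 11 numbered from 32, and what sets these numbers apart is not given in the sources used here. The methods describe 2 cohorts of these rats without tying them to library numbers, so cohort and number cannot be told apart. Rats 12 and 20 had the most Rn18s, the 18S ribosomal RNA, with 0.228% and 0.195% of counts. All marker genes searched had a count for excitatory neurons (5 of 5), oligodendrocytes (6 of 6), astrocytes (5 of 5) and microglia (5 of 5). So did those of endothelial cells (4 of 4) and meningeal fibroblasts (4 of 4). For inhibitory neurons 4 of 5 had one, and Sst was listed at 0 in every library. The 4 liver or muscle genes, expected near 0 in cortex, had a count too. Their means were 133 for Alb, 88.7 for Myh7, 2.78 for Ckm and 0.26 for Apoa2. A count alone therefore says little about which cells were present. The tissue is a mixture of cell types, so fewer cells of a type and less RNA per cell cannot be told apart in any value below. Levels are counts divided by DESeq2 size factors (normalized counts). They are not per transcript length, so they compare rats for 1 gene and do not rank genes.

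Eif2s2, the beta subunit of eIF2, ran from 787 normalized counts in rat 47 through a median of 1063 to 1613 in rat 3, with a mean of 1071 ± 165 (SD, n = 27). It rested on 577 to 1542 reads per library. Rats 3, 19 and 18 stood highest, all of them numbered up to 31. Eif3j, the loosely bound subunit of eIF3 that helps eIF3 onto the ribosome, ran from 529 in rat 47 through a median of 681 to 1087 in rat 3, with a mean of 696 ± 123 (SD, n = 27) on 364 to 955 reads. The lowest and the highest rat were thus the same for both genes. Without rat 3 the means were 1050 for Eif2s2 and 681 for Eif3j.

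**Figure D1:**
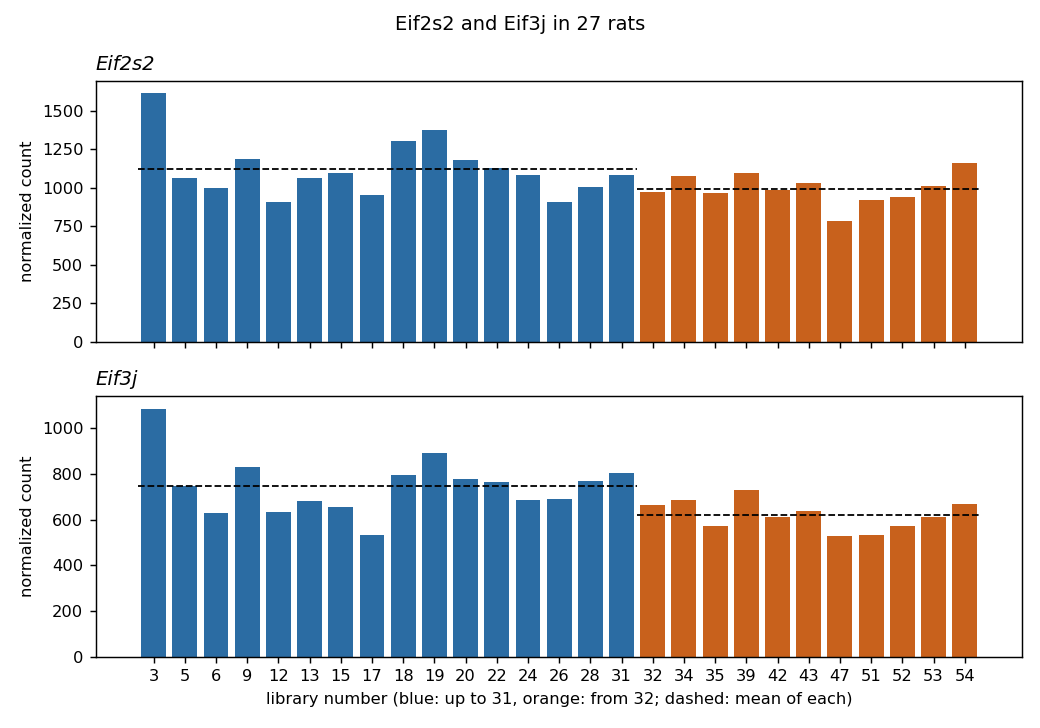
Normalized counts of Eif2s2 (top) and Eif3j (bottom), 1 bar per rat in order of library number, blue for numbers up to 31 and orange from 32, with the mean of each part dashed. Rat 3 is highest for both genes at 1613 and 1087, and rat 47 lowest at 787 and 529.

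The rats differed in these genes by more than counting error. All 50 passed a chi-square dispersion test against counting noise (adjusted p under 0.05), where 89.8% of 11730 genes averaging at least 10 counts did so, so this sets the group little apart. Without rat 3, 49 passed. The SD of their log2(normalized count + 1) values lay between 0.07 and 0.27 with 0.15 at the median, against a median of 0.19 for the 11730 genes. The median mean count was 700.3 for the 50 and 282 for all genes, and low counts widen the SD: set beside the 200 genes nearest in mean, 27 of the 50 had the smaller SD. For the median gene of the 50, 16.2% of the variance between rats was counting error. Eif2s2 (SD 0.21) and Eif3j (SD 0.24) came at places 11 and 6 of the 50 by width, against medians of 0.14 and 0.15 for the 200 genes nearest to each in mean.

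The 5 widest were Eif4ebp2, Eif4ebp1, Eif1, Eif4e2 and Eif4g2. Eif4ebp2, the main eIF4E-binding protein of the brain, ran from 67.3 normalized counts in rat 3 through a median of 103 to 154 in rat 26 (SD 0.27). Eif1, which keeps the scanning ribosome from settling on a wrong start codon, ran from 2727 in rat 35 through a median of 3292 to 5799 in rat 3 (SD 0.26). Eif4g2, an eIF4G relative without the eIF4E-binding part, ran from 3230 in rat 51 through a median of 4480 to 7050 in rat 3 (SD 0.25). Counting error made up 0.778% of the variance of Eif1 and 0.699% of that of Eif4g2. For Eif4ebp2, Eif4ebp1 and Eif4e2, with lower means of 104, 109 and 156, it made up 28.5%, 25.3% and 20.6%.

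The 5 narrowest were Eif3c, Eif4b, Eif2s3, Eif4h and Eif2a, with SDs of 0.07 to 0.09. Eif3c, a core scaffold subunit of eIF3, ran from 1298 in rat 54 through a median of 1433 to 1597 in rat 12. Eif4b, which stimulates the eIF4A helicase, ran from 2091 in rat 53 through a median of 2321 to 2605 in rat 18. Eif2s3, the gamma subunit of eIF2 that holds GTP and the transfer RNA, ran from 1097 in rat 51 through a median of 1266 to 1383 in rat 9. Subunits of 1 complex thus differed in spread, with Eif3c below Eif3j within eIF3 and Eif2s3 below Eif2s2 within eIF2.

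**Figure D2:**
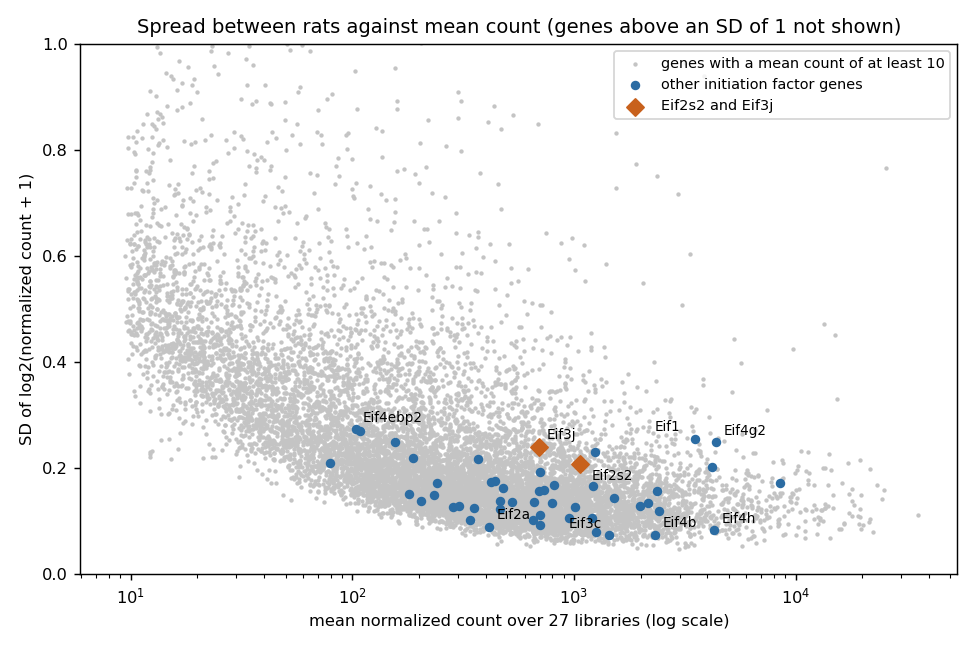
SD of log2(normalized count + 1) over 27 rats against the mean normalized count (log axis), grey for the 11730 genes averaging at least 10 counts, blue for 48 initiation factor genes and orange diamonds for Eif2s2 and Eif3j. Eif4b and Eif3c lie near an SD of 0.07 while Eif1 and Eif4g2, at comparable or higher counts, lie near 0.25.

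Rat 3 was the highest library for 21 of the 50 genes and the lowest for 4, and rat 51 was the lowest for 11. The highest library was numbered up to 31 for 46 of the 50. Rat 3 also had the highest oligodendrocyte score (2.41, a mean z score of 6 myelin genes scaled to an SD of 1) and the highest ribosomal protein gene score (3.06, the mean z score of 80 genes for cytosolic ribosomal proteins). The part of either in the levels of rat 3 was not tested. For the counts of calls, the median correlations and the correlations with Eif2s2 and Eif3j, the values without this rat are given where they change a call or a sign.

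Within eIF2 and its partners the alpha subunit Eif2s1 ran from 387 in rat 52 through 475 to 629 in rat 3 (mean 480.1 ± 55.7, SD, n = 27). Eif2s3y, the Y-linked copy of the gamma subunit, had a mean of 696 ± 73.4, and Eif2s3 a mean of 1262 ± 69.6. The pair is so alike in sequence that reads could be assigned to either. Eif2a and Eif2d, which can bring transfer RNA to the ribosome without eIF2, had means of 414 ± 25.6 and 205 ± 19.7, and counting error made up 65.0% and 54.2% of their variance. The 5 eIF2B subunits had SDs of log2 of 0.10 to 0.17, highest in Eif2b3, and means from 241 (Eif2b3) to 465 (Eif2b2). Among the eIF2 alpha kinases the means ran from 188 ± 27.6 for Eif2ak2, the double-stranded RNA sensor PKR, to 706 ± 44.2 for Eif2ak1, the haem-regulated kinase.

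The 12 measured eIF3 subunits had means from 442 ± 55.9 (Eif3k) to 2158 ± 201 (Eif3a, the largest subunit). Of the others, Eif3b had 1208 ± 90.8, Eif3c 1435 ± 73.3, Eif3d 704 ± 57.2, Eif3e 704 ± 93.2 and Eif3f 1991 ± 178. Eif3g had 955 ± 72.9, Eif3i 524 ± 51.7, Eif3l 663 ± 68.0 and Eif3m 730.1 ± 84.5 (SD, n = 27 throughout). Rat 3 was highest for Eif3d, Eif3f, Eif3g, Eif3i, Eif3j, Eif3k, Eif3l and Eif3m, and other rats were highest for Eif3a, Eif3b, Eif3c and Eif3e. Eif3j had the widest log2 spread of the 12 and Eif3e came next (0.19).

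In the cap-binding group Eif4e, the cap-binding protein itself, had a mean of 1012 ± 87.3, and its relative Eif4e2 a mean of 156 ± 27.9. Eif4ebp3 had the lowest counts of all, 79.2 ± 11.7, on no fewer than 41 reads per library. Eif4a2, the helicase form that neurons favour, had a mean of 8494 ± 1008 and its near copy Eif4a1 one of 2372 ± 265. Eif4a3, a core part of the exon junction complex, had 655 ± 49.3. Eif5a, which helps ribosomes past difficult peptide bonds and carries hypusine, had 4203 ± 634, its copy Eif5a2 had 817 ± 93.8, and Eif6, which keeps the large ribosomal subunit from joining early, had 799 ± 76.5. Eif1a, Eif1ax and Eif1b also have close copies, so all these counts are uncertain where the counting could split them.

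Against the libraries numbered up to 31, those from 32 had lower counts of 15 of the 50 genes and higher counts of none (edgeR quasi-likelihood test, adjusted p under 0.05). Over all 11716 genes tested, 9.18% were lower and 8.85% higher, so the members' calls lay on 1 side where those of all genes were balanced. The ribosomal protein gene score had a median of 0.104 up to 31 and -0.495 from 32. Of 35 cell type marker genes tested, 3 were higher from 32 and 0 lower (edgeR, adjusted p under 0.05), the higher ones near the 8.85% of all genes. They were Tbr1 of excitatory neurons (log2 fold change 0.28 ± 0.09), Slc32a1 of inhibitory neurons (0.22 ± 0.05) and the muscle gene Myh7 (0.27 ± 0.09). The part of the score and of these genes in the members' differences was not tested. Without adjustment 20 members were lower and 3 higher at p under 0.05, against 15.7% and 15.6% of all genes, and DESeq2 called 16 lower and 1 higher, against 9.84% and 8.83%. The median log2 fold change was -0.08 for the 50 and 0.00 for all genes, with 36 of the 50 below 0. The number of a library also marks its depth, and what else differs between the parts cannot be told apart from it.

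The largest of the 15 differences was in Eif4g2, with 3822 to 7050 normalized counts (median 4827) in the 16 libraries up to 31 and 3230 to 3898 (median 3760) in the 11 from 32. Its log2 fold change was -0.41 ± 0.06 (SE, edgeR, adjusted p = 3.03e-05), and the ranges met only at their edges. Eif1 had 3120 to 5799 (median 3825) against 2727 to 3292 (median 3001), a log2 fold change of -0.38 ± 0.07. Without rat 3, the highest library for both, the log2 fold changes were -0.36 ± 0.04 for Eif4g2 and -0.33 ± 0.05 for Eif1. Eif4ebp1, the binding protein best known as an mTOR target, had 98.5 to 162 (median 113) against 78.4 to 124 (median 89.8), a change of -0.35 ± 0.08. Eif4e2 and Eif5a followed with -0.32 ± 0.08 and -0.29 ± 0.06.

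Eif4a1 was the 1 gene of the 50 whose ranges did not overlap, 2347 to 3109 against 2002 to 2255 (log2 fold change -0.26 ± 0.04, edgeR, adjusted p = 4.43e-05). Eif4a2 gave -0.26 ± 0.05. Eif3j was lower from 32 (620 ± 64.6, n = 11, against 749 ± 127, n = 16; log2 fold change -0.27 ± 0.08, edgeR, adjusted p = 0.0153), with 11 of 11 libraries below the median of the others. Eif2s2 did not pass (996 ± 100 against 1122 ± 184; -0.17 ± 0.07, edgeR, adjusted p = 0.107). The other 7 called genes were Eif1a, Eif2s1, Eif3e, Eif3m, Eif4e, Eif3a and Eif4h, at -0.24 to -0.11.

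By role, lower counts were called for 3 of the 5 genes of the helicase group, 2 of 3 of the eIF4E family, 2 of 5 of eIF1 and eIF1A, 4 of 12 eIF3 subunits, and 1 gene each of eIF2 and partners (Eif2s1), the eIF4G family, the eIF4E-binding proteins and the eIF5 to eIF6 group. No eIF2B subunit and no eIF2 alpha kinase was called, and their log2 fold changes lay between -0.09 and 0.11. Eif3f had the highest log2 fold change of the eIF3 subunits, 0.12 ± 0.05 (edgeR, adjusted p = 0.0678), and DESeq2 and 2 other settings called it higher. Without rat 3 the counts were 15 lower and 1 higher, the higher gene being Eif3f (0.15 ± 0.04, edgeR, adjusted p = 0.00322), with 8.44% and 10.4% of all genes.

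**Figure D3:**
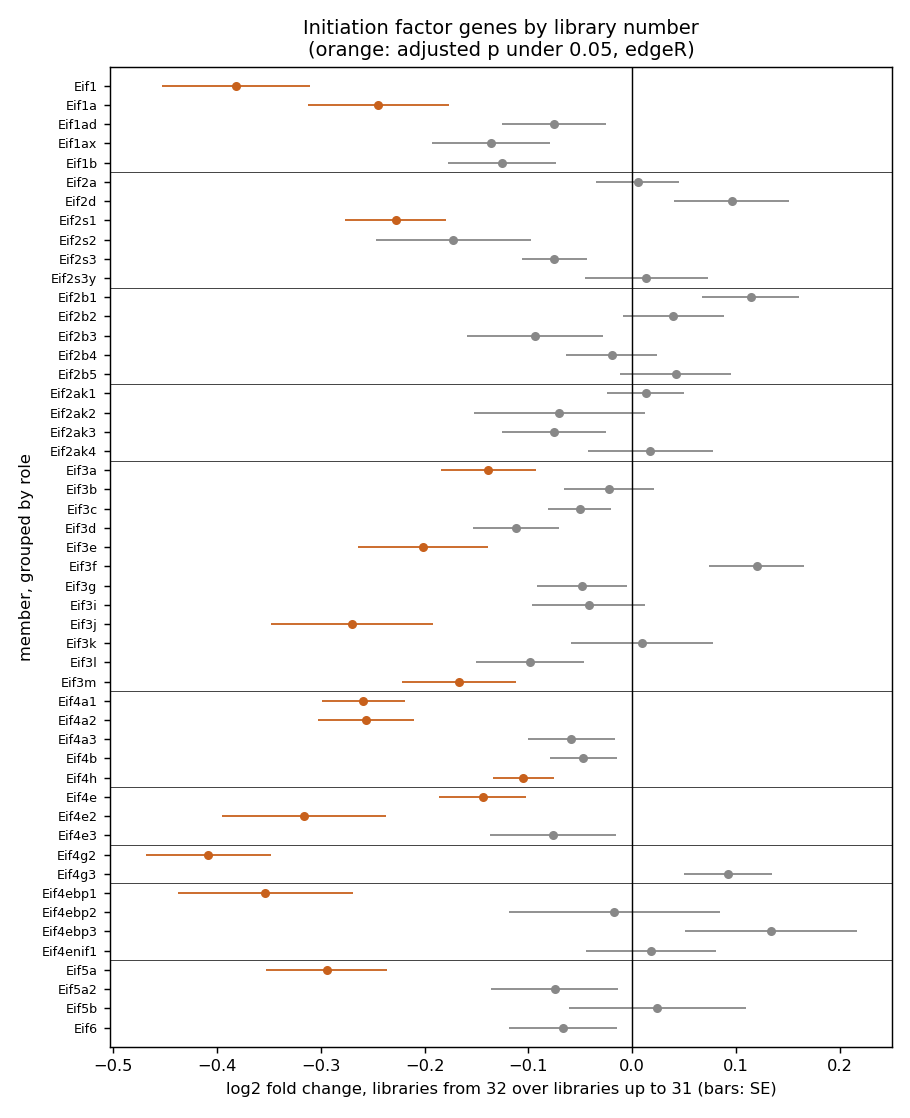
Log2 fold change of each initiation factor gene, 11 libraries numbered from 32 over 16 numbered up to 31, with SE bars and genes grouped by role, orange where the adjusted p (edgeR) was under 0.05. All 15 orange points lie left of 0, from -0.41 for Eif4g2 to -0.11 for Eif4h, and the eIF2B subunits and kinases, none of them orange, lie between -0.09 and 0.11.

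None of the 50 genes passed the test against the oligodendrocyte score. With edgeR, 0 had an adjusted p under 0.05 and 2 an unadjusted one (Eif3f and Eif4enif1, against 11.4% of all genes), and DESeq2 called 0, while 1.37% of all genes rose and 0.137% fell with the score. Eif2s2 changed by 0.06 log2 units per SD of the score (edgeR, adjusted p = 0.590) and Eif3j by 0.06 (adjusted p = 0.651). Without rat 3 the slopes were -0.01 for both (edgeR, adjusted p = 0.991 and 0.980).

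Across the 1225 pairs of the 50 genes the median Spearman's rho was 0.126, with the middle part of the pairs between -0.152 and 0.375 (quartiles) and 37.6% below 0. The median was -0.005 over all pairs of the 11730 genes, -0.0137 over 25 pathway genes, and 0.598 over the 80 cytosolic ribosomal protein genes. The median of the initiation factor genes thus lay nearer to that of all genes than to that of the ribosomal protein genes. With the library-number parts centred the median was 0.0965, and it was 0.124 in the libraries up to 31, 0.0727 in those from 32 and 0.115 without rat 3. The rats are the points of each rho, and all genes share their depth and their tissue mixture. These medians carry no test.

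Roles differed in how far their genes moved together. The median rho within the 6 genes of eIF2 and partners was 0.475, within eIF1 and eIF1A 0.436, within eIF4A, eIF4B and eIF4H 0.341 and within the 12 eIF3 subunits 0.269. It was -0.00672 within the eIF2B subunits, 0.00824 within the kinases and -0.157 within the eIF4E-binding proteins and transporter. With the library-number parts centred, that of eIF1 and eIF1A came to 0.188 and that of eIF4A, eIF4B and eIF4H to 0.185, while eIF2 and partners (0.470) and eIF3 (0.317) stayed about level. The 3 genes of the eIF4E family had a median of 0.339 pooled and -0.133 with the parts centred, so its sign turned. The sign of the eIF2B subunits turned as well, near 0, from -0.00672 to 0.0339. Within the parts, eIF1 and eIF1A had 0.0471 up to 31 and 0.432 from 32, and eIF4A, eIF4B and eIF4H had 0.297 and -0.0455. Without rat 3 the median of the kinases turned to -0.0656, and the other roles kept their sign.

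The highest rho of all pairs joined Eif1 and Eif5a (rho 0.935, r 0.962, permutation p = 1e-05 for each, the smallest 100000 permutations give). It was 0.921 in the libraries up to 31 and 0.427 in those from 32, and r was 0.934 without the 2 libraries farthest from the median of Eif1. Eif3g, an RNA-binding subunit of eIF3, and Eif6 had a rho of 0.894 (r 0.855, r without 2 libraries 0.837, permutation p = 1e-05 for each), and here both parts showed it, with 0.891 and 0.900. Eif3e and Eif4a2 did so too (rho 0.900, r 0.873, r without 2 libraries 0.830, permutation p = 1e-05 for each), with 0.812 and 0.800.

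At the other end Eif1ax and Eif3f had a rho of -0.745 (r -0.643, r without 2 libraries -0.697, permutation p = 7e-05 and 0.00039), with -0.638 up to 31 and -0.10 from 32. Eif4e and Eif4g3, the third eIF4G gene, had a rho of -0.679 (r -0.642, r without 2 libraries -0.591, permutation p = 0.00013 and 0.00033), with -0.424 and -0.645 within the parts. These pairs were picked as the extremes of 1225, and their p-values are not adjusted for that.

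Among close copies the values ranged widely. Eif5a and Eif5a2 had a rho of -0.144 (r -0.244, r without 2 libraries -0.0617, permutation p = 0.474 and 0.221), with -0.718 in the libraries up to 31 and -0.200 in those from 32. Eif2s3 and Eif2s3y had a rho of 0.632 (r 0.680, r without 2 libraries 0.593, permutation p = 0.00071 and 0.00014), and the value within each part was 0.741 and 0.773. Eif4a1 and Eif4a2 had a pooled rho of 0.753 (permutation p = 3e-05) that came to 0.415 and 0.409 within the parts, and Eif1 and Eif1b one of 0.610 that came to 0.353 and 0.673.

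**Figure D4:**
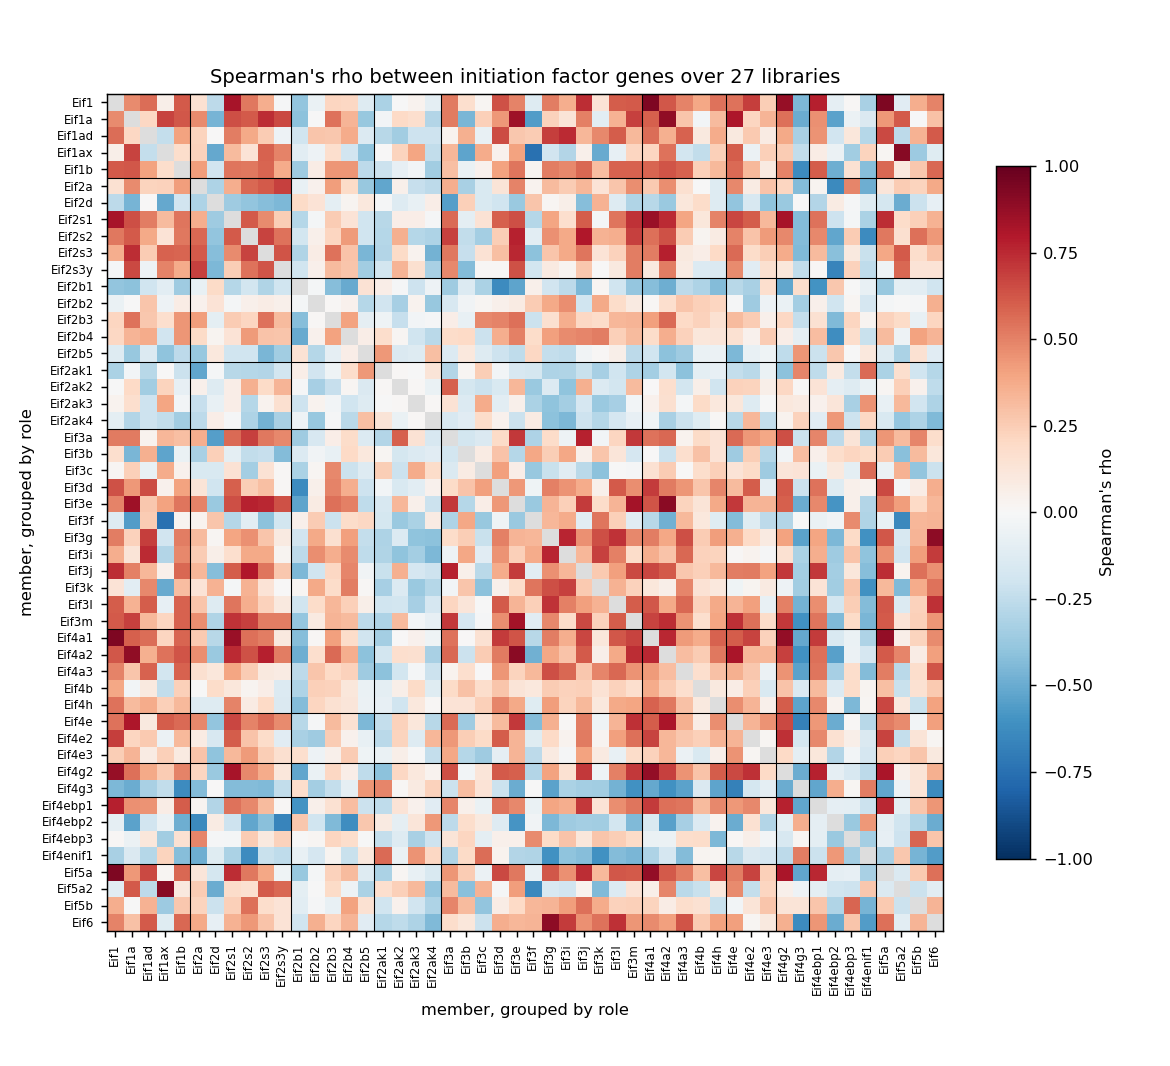
Spearman's rho over 27 rats for every pair of the 50 initiation factor genes, grouped by role between black lines, red above 0 and blue below, the diagonal grey. Red bands run through Eif1, Eif2s1, Eif4a1, Eif4a2 and Eif5a, while the rows of Eif2d, Eif2b1, Eif4g3 and Eif4enif1 are mostly blue, and the median over all pairs is 0.126.

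Eif2s2 and Eif3j had a rho of 0.799 (r 0.871, n = 27, permutation p = 2e-05 and 1e-05). It was 0.809 in the 16 libraries up to 31, 0.900 in the 11 from 32, 0.824 with these parts centred and 0.774 without rat 3, and r was 0.782 without the 2 libraries farthest from the median of Eif2s2. Each was the other's closest gene among the 50. Yet 17 pairs of the 1225 had a higher rho, and among all genes 25 were closer to Eif2s2 than Eif3j was, and 36 closer to Eif3j than Eif2s2 was. The closeness of the 2 genes is therefore shared with many others.

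Of the other 49 genes, 15 correlated positively with Eif2s2 and 2 negatively (permutation test, adjusted p under 0.05 over 11729 genes), where 7.78% of all genes were positive and 6.82% negative. The median rho with Eif2s2 was 0.366 for the 49 and -0.00977 for all genes. Closest after Eif3j stood Eif3e (rho 0.768, r 0.781, r without 2 libraries 0.752, permutation p = 2e-05 and 1e-05, adjusted p = 0.00204 and 0.000385). It was 0.821 and 0.718 within the parts. Eif3m (rho 0.687) was 0.788 within the libraries up to 31 and 0.173 within those from 32, and Eif3a (rho 0.682) was 0.624 and 0.527.

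The other eIF2 subunits and Eif2a were also among the positive genes. Its rho was 0.673 with Eif2s3 and 0.611 with Eif2s1 (permutation, adjusted p = 0.00655 and 0.0141), 0.542 with Eif2s3y and 0.571 with Eif2a (0.0345 and 0.0247). Without rat 3, Eif2a lost its call (rho 0.521, permutation, adjusted p = 0.0680), and with the library-number parts centred Eif2s1 lost its call (rho 0.470, adjusted p = 0.0791). With Eif2d it was -0.393 (adjusted p = 0.152). In the negative direction stood Eif4enif1, the transporter that carries eIF4E into the nucleus (rho -0.628, r -0.743, r without 2 libraries -0.764, permutation p = 0.00064 and 6e-05, adjusted p = 0.0120 and 0.00104; -0.797 and -0.409 within the parts), and Eif4ebp2 (rho -0.518, r -0.688, r without 2 libraries -0.622, permutation p = 0.00617 and 0.00012, adjusted p = 0.0449 and 0.00162; -0.588 and -0.827 within the parts). Rat 3 was the lowest library for both Eif4enif1 and Eif4ebp2. Without it Eif4ebp2 lost its call (rho -0.460, permutation, adjusted p = 0.121) while Eif4enif1 kept it (rho -0.583, adjusted p = 0.0374). The other eIF4E-binding proteins had a positive rho with Eif2s2, 0.484 for Eif4ebp1 and 0.253 for Eif4ebp3, neither past the threshold (permutation, adjusted p = 0.0639 and 0.398).

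For Eif3j, 17 genes correlated positively and 0 negatively (permutation test, adjusted p under 0.05), where 9.57% of all genes were positive and 6.97% negative. Unadjusted, 3 were negative at p under 0.05 (against 14.6% of all genes), and with Pearson's r 4 were negative after adjustment, when 15.7% of all genes were. The highest after Eif2s2 were Eif3a (rho 0.769, r 0.645, r without 2 libraries 0.749, permutation p = 1e-05 and 0.00029, adjusted p = 0.00106 and 0.00268) and Eif1 (rho 0.742, r 0.804, r without 2 libraries 0.664, permutation p = 2e-05 and 1e-05, adjusted p = 0.00151 and 0.000298). Eif5a (0.741), Eif4ebp1 (0.709), Eif4g2 (0.706) and Eif3e (0.701) came next. Within the libraries from 32 Eif1, Eif4ebp1 and Eif4g2 had a rho of 0.10, 0.136 and 0.0636, and Eif3e one of 0.691.

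Leaving out rat 3 left 9 positive and 1 negative gene for Eif2s2 and 12 positive for Eif3j, and the share of all genes called dropped as well, to 4.36% positive for Eif2s2 and 5.99% for Eif3j. The genes that lost their call were Eif1, Eif1b, Eif2a, Eif4a1, Eif5a, Eif5b and Eif4ebp2 for Eif2s2 (permutation, adjusted p of 0.0680 to 0.121) and Eif1a, Eif1b, Eif4e, Eif4e2 and Eif5b for Eif3j (0.0610 to 0.108). With the library-number parts centred the counts were 11 positive and 2 negative for Eif2s2, and 8 positive and 3 negative for Eif3j. Of all genes, 6.43% were then positive and 6.38% negative for Eif2s2, and 5.96% and 5.30% for Eif3j, so the negative counts were near the share of all genes. The calls lost with the parts centred were Eif1, Eif1b, Eif2s1, Eif4a1 and Eif5a for Eif2s2 (permutation, adjusted p of 0.0735 to 0.219), and Eif1a, Eif1b, Eif2s1, Eif2s3, Eif3m, Eif4a1, Eif4a2, Eif4e, Eif4e2 and Eif4g2 for Eif3j (0.0791 to 0.777). Gained were Eif2b4 for both, positive, and Eif3c, Eif4ebp2 and Eif4enif1 for Eif3j, negative. Eif3a, Eif3e and the pair itself kept an adjusted p under 0.05 in both of these settings for both genes. Eif3a with Eif2s2 did so only at the edge with the parts centred (rho 0.520, permutation, adjusted p = 0.04998).

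**Figure D5:**
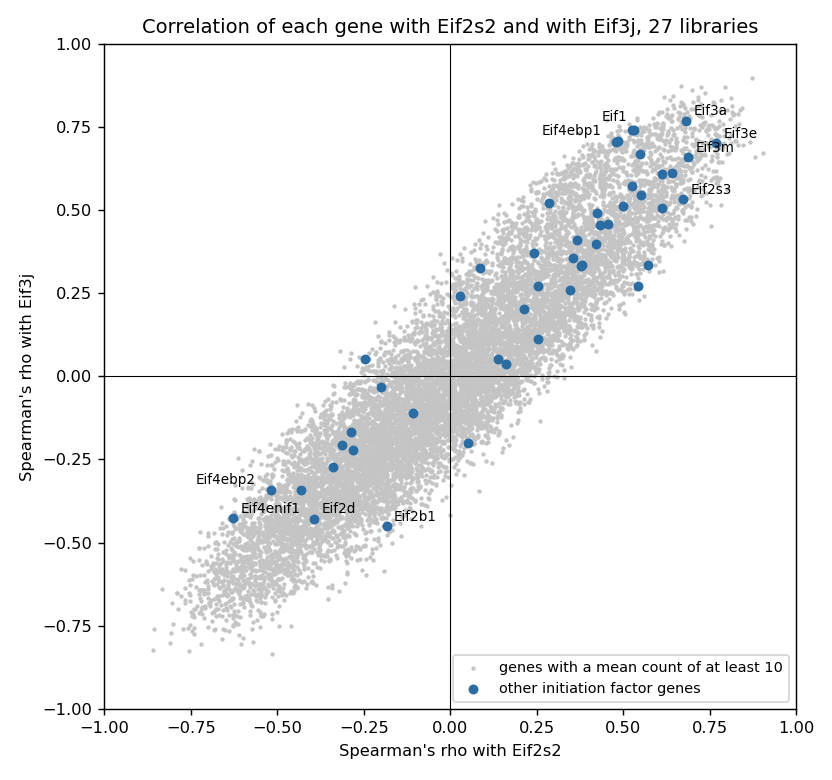
Spearman's rho over 27 rats with Eif2s2 (horizontal) and with Eif3j (vertical), grey for the 11730 genes averaging at least 10 counts and blue for the other 48 initiation factor genes. The blue points lie mostly in the upper right (the medians over all 49 other genes are 0.366 and 0.336), and Eif4enif1 and Eif4ebp2 lie lower left. The 2 axes share their rats.

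Over the whole table the 5 genes closest to Eif2s2 were Cwf19l2 (rho 0.904), Srp19 (0.880), Sec62 (0.871), Hsp90aa1 (0.867) and Cir1 (0.845), with r of 0.802 to 0.915, r without 2 libraries of 0.798 to 0.844 and a permutation adjusted p of 0.00147 each. Srp19 and Sec62 serve the entry of proteins into the endoplasmic reticulum and Hsp90aa1 is a chaperone. The 5 closest to Eif3j were Sec62 (0.897), Rwdd1 (0.875), Zmat2 (0.871), Cox6c (0.870) and Ranbp1 (0.861), with r of 0.844 to 0.928, r without 2 libraries of 0.747 to 0.879 and an adjusted p of 0.00106 each. Sec62 was in both lists. The study lists Sec62 and Cir1 for the same anxiety measure as Eif2s2 and Eif3j, so their closeness is likewise partly fixed by that choice.

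Of the library measures, the ribosomal protein gene score moved most with the 2 genes. Its rho was 0.699 with Eif2s2 (r 0.821, r without 2 libraries 0.616, permutation adjusted p over 8 relations 0.00032 and 4e-05) and 0.759 with Eif3j (r 0.821, r without 2 libraries 0.671, adjusted p 0.00016 and 4e-05). Within the libraries up to 31 it was 0.726 and 0.756, within those from 32 0.418 and 0.527. Total counts ran against Eif3j (rho -0.608, r -0.569, r without 2 libraries -0.606, permutation adjusted p = 0.00264 and 0.00472), but within the parts the rho was -0.479 and 0.264. For Eif2s2 the rho was -0.411 and r was -0.470 (r without 2 libraries -0.484, permutation adjusted p = 0.0685 and 0.0247), with a rho of -0.303 and 0.0636 within the parts. With the Rn18s share and the oligodendrocyte score no rho with either gene passed (permutation adjusted p of 0.12 to 0.919). Of 35 cell type marker genes, 3 correlated negatively with Eif2s2 and 2 with Eif3j, and 0 positively with either (permutation test, adjusted p under 0.05 over 11729 genes), so the negative counts lay near the 6.82% and 6.97% of all genes. Of the 35, 16 had a rho above 0 with Eif2s2 and 11 with Eif3j. Tbr1 had a rho of -0.557 with Eif2s2 and -0.640 with Eif3j (r -0.715 and -0.721, r without 2 libraries -0.563 and -0.481, permutation adjusted p = 0.0294 and 0.00782), which was -0.803 and -0.788 up to 31 but 0.236 and 0.118 from 32. Slc32a1 had -0.527 and -0.510 (permutation adjusted p = 0.0433 and 0.0477), and the microglial gene Cx3cr1 -0.540 with Eif2s2 (0.0341). Other markers of the same cells had a positive rho with Eif2s2 that did not pass, 0.457 for Neurod6 of excitatory neurons, 0.222 for Pvalb of inhibitory neurons and 0.427 for Aif1 of microglia. Without rat 3 only Tbr1 with Eif3j kept an adjusted p under 0.05 (0.0258). The part of any of these measures in the correlations above was not tested.

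Other genes of the pathway were read from a list of 28, of which Dhx29, Larp1 and Gigyf2 were listed at 0 and 25 were tested. By library number 9 were lower and 1 higher from 32 (edgeR, adjusted p under 0.05), against 9.18% and 8.85% of all genes. Pabpc1, the poly(A)-binding protein that joins the mRNA tail to eIF4G, was lowest in ratio, 2062 ± 165 (n = 11) against 4192 ± 1491 (n = 16), a log2 fold change of -1.02 ± 0.14 (edgeR, adjusted p = 1.82e-05). Ddx3x, a helicase that helps scanning, had -0.44 ± 0.06 and Bzw1, an eIF5 mimic, -0.23 ± 0.04. Mknk1, a kinase of eIF4E, was the 1 higher gene, 0.25 ± 0.06.

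With Eif2s2, 8 of the 25 correlated positively and 2 negatively, and with Eif3j 9 and 2 (permutation test, adjusted p under 0.05). The shares over all genes were 7.78% and 6.82% for Eif2s2 and 9.57% and 6.97% for Eif3j, so the negative counts lay near them. Without rat 3 the counts were 3 and 1 for Eif2s2 and 7 and 1 for Eif3j. Paip2, which binds and restrains the poly(A)-binding protein, was highest for both (rho 0.727 and 0.812, r 0.765 and 0.846, r without 2 libraries 0.734 and 0.735, permutation adjusted p 0.00322 and 0.00106). Denr, a recycling and reinitiation factor, had 0.595 and 0.751, and Fmr1, the RNA-binding protein lost in fragile X syndrome, 0.622 and 0.523. Without rat 3 Denr lost its call with Eif2s2 and Fmr1 with Eif3j (permutation, adjusted p = 0.0515 and 0.0957). On the negative side Rptor, the mTOR partner that presents the 4E-binding proteins to the kinase, had -0.622 and -0.738 (r -0.739 and -0.769, r without 2 libraries -0.652 and -0.614, permutation adjusted p 0.0125 and 0.00173). In the libraries up to 31 these were -0.738 and -0.821, and in those from 32 0.0455 and 0.164. No pathway gene passed the test against the oligodendrocyte score (0 rising, 0 falling with edgeR).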

How the data were processed

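Libraries were single-read RNA sequencing of medial prefrontal cortex from 27 rats, 1 library each. The authors deposited raw read counts per gene, without normalization. The submitters' processing notes name Trimmomatic, STAR and HTSeq, while the genome build, annotation and strand setting are not given in the sources used here. Gene IDs were named from the RefSeq list of GRCr8 (28157 of 36865 rows). The members, the role groups and the gene lists were chosen with earlier results of these data known.

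Counts were divided by DESeq2 size factors (version 1.42.0) and analysed as log2(normalized count + 1), a scale that shrinks the changes of genes with few counts. Differences by library number and slopes on the oligodendrocyte score were fitted with edgeR's quasi-likelihood test (version 4.0.16, filterByExpr, TMM) over all genes. Correlations were Spearman's rho and Pearson's r with two-sided permutation tests (100000 permutations) over genes averaging at least 10 counts, adjusted by Benjamini-Hochberg. The models were also run on simulated counts with a fixed dispersion and independent genes. These data differ from that, so nothing is read from the simulation. Named were Eif2s2 and Eif3j, all of eIF2 and eIF3, the extremes of level and of spread, close copies, up to 5 called genes in each direction, and the 5 most alike genes. Alternatives were other scalings, filters and tests, the library-number parts, and leaving out rats 12 and 20 or, added after seeing the data, rat 3. Permutation p-values measure the spread between these 27 rats. Without molecular identifiers, counting error does not cover amplification.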

Additional observations from a re-analysis of the deposited data

How the results depend on the processing

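Of 59 alternatives to the 9 main results, 54 kept a count within 1.5 times, a value within its spread, or the direction and side of the threshold, and 5 did not. With Pearson's r in place of Spearman's rho, 29 members correlated with Eif2s2 and 30 with Eif3j, against 17 and 17, and the share of all genes called rose as well, to 14.5% positive and 16.3% negative for Eif2s2 and 15.48% and 15.70% for Eif3j. With the library-number parts centred, 11 correlated with Eif3j, and without rat 3, an alternative chosen after seeing the data, 10 correlated with Eif2s2. The median pairwise rho was 0.0727 in the libraries from 32 alone, against 0.126. The cause of these shifts was not tested. The rho of Eif2s2 with Eif3j stayed between 0.746 and 0.900 in 9 alternatives. Members called by library number numbered 14 to 17 over 7 alternatives, and all but Eif3a (adjusted p = 0.0529 without the filter on low counts) kept their call in each. No paired analysis was possible because the samples form 1 group. Genes with few reads limit the precision: Eif4ebp3 rested on as few as 41 reads in a library, and counting error made up 59.4% of its variance.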
